A study of Mus musculus with 2 samples.

Results

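The Dlx and Msx genes are 2 small families of homeobox transcription factors, and they were followed here in mouse embryonic fibroblasts with and without the L307R change in Phc2. The members are Dlx1, Dlx2, Dlx3, Dlx4, Dlx5, Dlx6, Msx1 and Msx2, 8 of the 18193 genes with a probe set. They were taken by name: a probe set counted when its single gene symbol in the platform annotation was that of a member, which gave 12 probe sets. Expression had been measured on 1 Affymetrix array per genotype, 2 arrays in all. The first was from fibroblasts homozygous for the missense change (genotype Phc2 L307R/L307R) and the second from wild-type fibroblasts. Both cultures were labelled C57BL/6, came from embryonic day 12.5 and were at passage 1; no further allele or agent is named in the labels, which do not say how many embryos gave each culture. Phc2 belongs to Polycomb repressive complex 1, which silences developmental genes, and L307R lies in its SAM domain, through which Phc2 molecules polymerise. With 1 array per genotype no difference has a replicate, so no p-value was computed and each ratio compares those cultures alone.

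Dlx proteins are the vertebrate relatives of fly Distal-less. Their genes sit as convergent pairs, Dlx1 with Dlx2, Dlx3 with Dlx4 and Dlx5 with Dlx6, and the partners of a pair share enhancers and much of their expression in the branchial arches, limb ridge, forebrain and skeleton. Msx1 and Msx2, relatives of fly muscle segment homeobox, bind similar AT-rich sites but act mostly as repressors, keep progenitors of skull, tooth and limb undifferentiated and respond to BMP signals. Dlx and Msx proteins can pair with each other, and each then blocks the activity of the other. In mouse embryonic stem cells the promoters of many of these genes are CpG-rich and carry Polycomb marks.

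A RefSeq promoter window, 250 bases before to 50 after the gene's start in the build GRCm38.p6, was at hand for 4 of the 8 members: Dlx1, Dlx2, Msx1 and Msx2. No window was used for Dlx3, Dlx4, Dlx5 and Dlx6. The windows are shown because CpG content is the feature by which Polycomb target promoters are usually described; Dlx1 is the member of the shown set without signal on these arrays, and the other 3 had signal. Each is written from 5′ to 3′ on the strand of its gene, with every CG dinucleotide in capitals. They lie at chr2:71529195-71529494 on the plus strand (Dlx1), chr2:71546705-71547004 on the minus strand (Dlx2), chr5:37824536-37824835 on the minus strand (Msx1) and chr13:53472731-53473030 on the minus strand (Msx2).
Dlx1: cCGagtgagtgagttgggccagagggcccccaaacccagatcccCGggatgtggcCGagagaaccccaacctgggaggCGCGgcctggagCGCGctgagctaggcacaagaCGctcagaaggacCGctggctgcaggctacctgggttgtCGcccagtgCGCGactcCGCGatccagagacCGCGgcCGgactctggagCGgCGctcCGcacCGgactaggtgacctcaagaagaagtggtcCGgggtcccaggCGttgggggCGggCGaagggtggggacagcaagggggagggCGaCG
Dlx2: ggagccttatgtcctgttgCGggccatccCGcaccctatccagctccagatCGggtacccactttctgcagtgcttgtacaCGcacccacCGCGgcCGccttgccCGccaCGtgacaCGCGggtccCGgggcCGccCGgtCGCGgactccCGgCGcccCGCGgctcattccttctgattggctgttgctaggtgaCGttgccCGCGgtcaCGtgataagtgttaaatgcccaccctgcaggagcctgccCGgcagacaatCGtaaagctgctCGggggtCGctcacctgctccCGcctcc
Msx1: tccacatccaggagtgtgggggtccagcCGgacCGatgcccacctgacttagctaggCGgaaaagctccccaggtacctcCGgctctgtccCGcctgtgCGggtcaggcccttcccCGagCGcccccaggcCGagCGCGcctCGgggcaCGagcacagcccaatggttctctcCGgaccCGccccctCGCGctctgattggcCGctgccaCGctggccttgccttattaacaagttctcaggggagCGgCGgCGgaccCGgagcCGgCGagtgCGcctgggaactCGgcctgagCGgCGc
Msx2: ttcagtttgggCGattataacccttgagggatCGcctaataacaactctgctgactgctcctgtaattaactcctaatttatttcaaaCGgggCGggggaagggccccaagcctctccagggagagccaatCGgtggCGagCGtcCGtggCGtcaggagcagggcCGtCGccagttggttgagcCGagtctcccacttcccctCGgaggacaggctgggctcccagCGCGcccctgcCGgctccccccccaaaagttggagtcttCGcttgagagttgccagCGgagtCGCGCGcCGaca
The Dlx1 window held 27 CG dinucleotides, the Dlx2 window 29, the Msx1 window 29 and the Msx2 window 22, against a median of 7 over 32851 promoter windows of the same length. At least as many CG dinucleotides as in Dlx1 were found in 15.5% of all windows, at least as many as in Dlx2 or Msx1 in 12.9% and at least as many as in Msx2 in 23.1%. Dlx1, below the floor on the arrays, and its partner Dlx2, above it, were therefore alike in this count. The homeodomain core motifs TAATTG and TAATTA were searched on both strands, the second of which reads the same on either strand. TAATTG was in none of these 4 windows and in 8.0% of all windows. TAATTA was in the Msx2 window alone among the 4, and in 5.29% of all windows.

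Some of the family had signal. The floor, below which a signal was treated as background, was the median signal, 94.8, and a gene was called measured when its brightest probe set exceeded it on at least 1 array. Dlx2, Dlx5, Msx1 and Msx2 were measured, 4 of the 8 members, as were 11408 of the 18193 genes. For Dlx1, Dlx3, Dlx4 and Dlx6, every probe set was under the floor in Phc2 L307R and in wild type. A measured member could pass through 1 array alone, but all 4 exceeded the floor on both arrays with the probe set that stands for them. In bulk RNA, fewer cells that express a gene and less of its RNA per cell cannot be told apart.

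**Figure D1:**
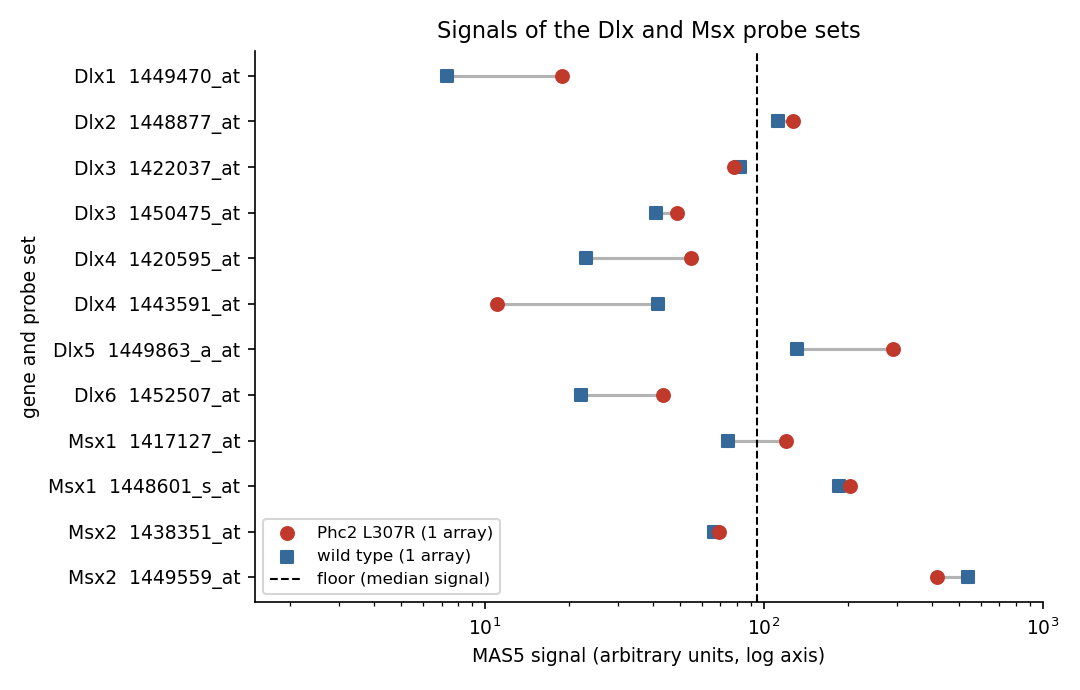
MAS5 signal (log axis) of the 12 Dlx and Msx probe sets in Phc2 L307R (red circles) and wild type (blue squares), 1 array each, with the floor of 94.8 as a dashed line. Dlx5 shows the widest gap among probe sets above the floor, 291.0 in Phc2 L307R against 131.2 in wild type, while 7 probe sets lie below the floor on both arrays.

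Dlx5, which drives osteoblast and chondrocyte maturation and patterns the lower jaw and limb ridge, was the 1 member with a difference of at least 2-fold. Its only probe set, 1449863_a_at, read 291.0 in Phc2 L307R and 131.2 in wild type. The signal was thus clear of the floor in Phc2 L307R and close to it in wild type, and the ratio was 2.22-fold, or 1.15 on the log2 scale. Of all measured genes, 0.579% were at least 2-fold higher and 0.535% at least 2-fold lower, and 34 genes, Dlx5 included, had a log2 ratio as high as that of Dlx5. In the band of mean signal from the floor to 4 times the floor, which was chosen after the values were seen and in which Dlx5 lies, 1.18% of 3376 genes were at least 2-fold higher and 0.948% at least 2-fold lower. The log2 ratio was 3.54 times the SD of 0.32 between measured probe sets of 1 gene, the only technical error that could be had, taken over 5460 genes. For measured probe sets of similar brightness, with a mean signal between 153 and 217, the SD of the log2 ratio was 0.44 and the 90th percentile 0.54. The value rests on 1 probe set, so no second measurement of Dlx5 stands beside it, and it fell short of 2-fold when the floor was raised to the 60th percentile of signals (0.72) or was added to each signal as a pseudocount (0.77).

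Dlx6, the partner of Dlx5 in the same gene pair, was not measured. Its probe set 1452507_at read 43.4 in Phc2 L307R and 22.2 in wild type, both less than the floor. The raw log2 ratio was 0.97, in the direction of Dlx5, but signals this low scatter widely: among 21409 probe sets below the floor on both arrays, 16.5% were at least 2-fold higher in raw signal and 19.6% at least 2-fold lower, with an SD of 1.38 on the log2 scale. The RNAs transcribed across the pair read 22.2 in Phc2 L307R and 31.4 in wild type for Dlx6os1, the transcript also known as Evf2, which is made from the enhancer between the genes, and 10.7 in Phc2 L307R and 6.6 in wild type for Dlx6os2. Both were below the floor, so at this sensitivity Dlx5 was the only transcript of the pair that could be compared.

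Dlx2, which with Dlx1 directs forebrain interneurons and the upper jaw, was measured and differed little. Probe set 1448877_at read 127.2 in Phc2 L307R and 112.8 in wild type, a log2 ratio of 0.17, within the SD of 0.32 between probe sets. Dlx1 was at 18.9 in Phc2 L307R and 7.3 in wild type, far below the floor. Its antisense RNA Dlx1as read 2.8 in Phc2 L307R and 11.6 in wild type, also below it. The raw log2 ratio of Dlx1, 1.37, was as large as 1 SD of such dim probe sets and carries no direction.

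Dlx3 and Dlx4, the pair known from epidermis, hair, tooth, bone and placenta, stayed below the floor with both probe sets each. Dlx3 read 78.4 in Phc2 L307R and 82.2 in wild type at 1422037_at, and 48.9 in Phc2 L307R and 41.1 in wild type at 1450475_at. The probe sets of Dlx4 went opposite ways: 1420595_at read 54.9 in Phc2 L307R and 23.0 in wild type, while 1443591_at read 11.1 in Phc2 L307R and 41.8 in wild type. Their raw log2 ratios were 1.26 and -1.91, opposite in sign within 1 gene. Dlx4os, an RNA of the same locus, read 16.6 in Phc2 L307R and 33.8 in wild type.

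Msx1, a repressor that holds back differentiation in tooth, palate and limb, was measured by 2 probe sets made to the same reference sequence. The brighter, 1448601_s_at, read 204.0 in Phc2 L307R and 186.4 in wild type, a log2 ratio of 0.13. At 1417127_at the signal was 120.7 in Phc2 L307R, above the floor, and 74.5 in wild type, below it, so that the log2 ratio was at least 0.35. Both probe sets were higher in Phc2 L307R, the brighter by less than the SD between probe sets of a gene, and the dimmer at a raw log2 ratio of 0.70.

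Msx2, which acts in the skull sutures and represses bone genes that Dlx5 activates, was the 1 measured member with a lower signal in Phc2 L307R. Probe set 1449559_at read 418.9 in Phc2 L307R and 541.9 in wild type, 1.29-fold lower at a log2 ratio of -0.37. That is 1.14 times the SD between probe sets, and 8.88% of measured genes had a log2 ratio as low. The other probe set, 1438351_at, lay below the floor, at 68.9 in Phc2 L307R and 66.3 in wild type. Dlx5 and Msx2 therefore had ratios of opposite sign, the first past 2-fold and the second within the range of many genes.

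**Figure D2:**
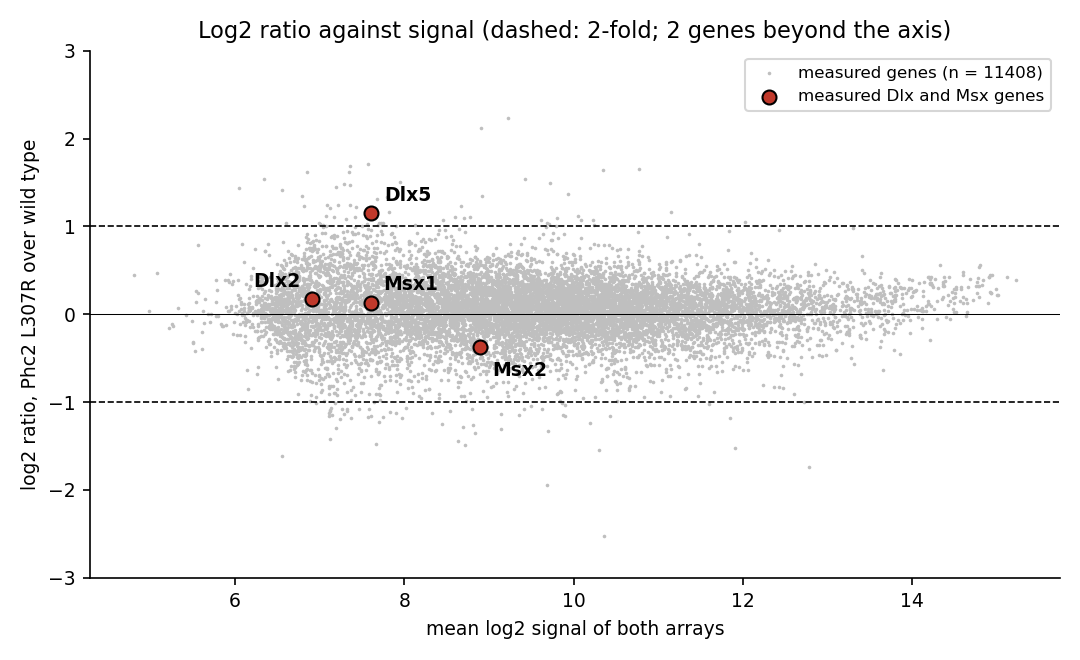
Log2 ratio of Phc2 L307R over wild type against the mean log2 signal for 11408 measured genes (grey), with the 4 measured Dlx and Msx genes in red and dashed lines at 2-fold. Dlx5 at 1.15 lies above the upper line, and Dlx2 at 0.17, Msx1 at 0.13 and Msx2 at -0.37 lie inside the cloud.

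As a group, the members had a median log2 ratio of 0.15 over the 4 measured genes, against 0.06 over all measured genes. Of the 4, 3 were above 0 and 1 below, where 59.1% of all measured genes were above 0. By size, 1 of 4 was at least 2-fold higher, beside 0.579% of all measured genes, and 0 of 4 at least 2-fold lower, beside 0.535%. At a threshold of 3-fold 0 of 4 were higher or lower, beside 0.0701% and 0.0526% of all measured genes. The single gene past 2-fold was Dlx5, and the other 3 lay between -0.37 and 0.17.

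**Figure D3:**
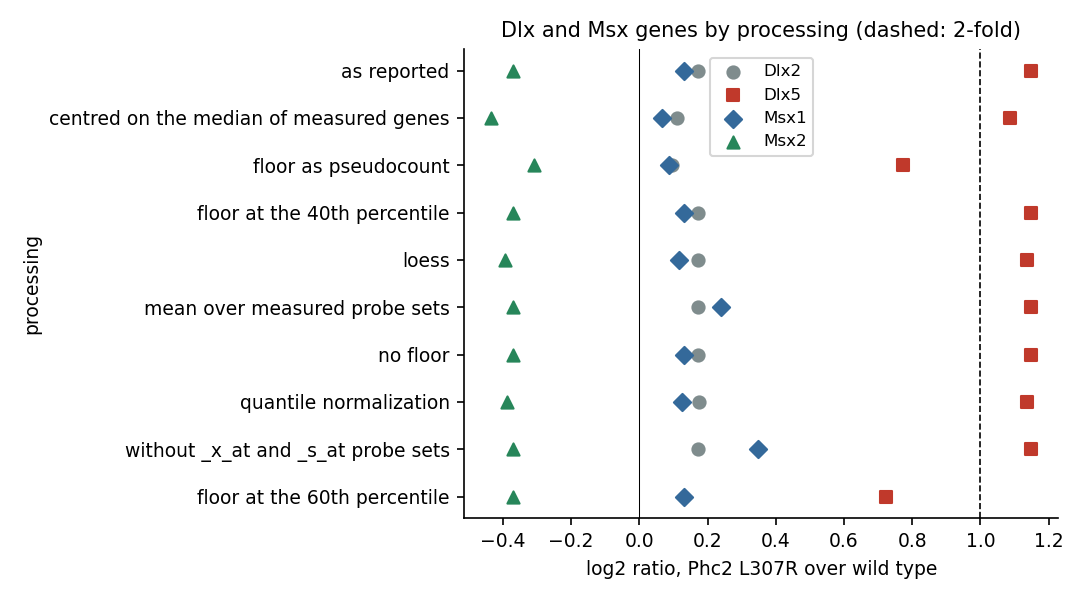
Log2 ratio of Phc2 L307R over wild type for Dlx2, Dlx5, Msx1 and Msx2 as reported and under each alternative processing, with 2-fold as a dashed line. Dlx5 lies between 0.72 and 1.15 and falls inside 2-fold when the floor is the 60th percentile or is added as a pseudocount, while Msx2 lies below 0 throughout.

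The chromosomal surroundings of the members differed little. No member lies on chromosome 4, which holds Phc2: Dlx1 and Dlx2 are on chromosome 2, Msx1 on 5, Dlx5 and Dlx6 on 6, Dlx3 and Dlx4 on 11 and Msx2 on 13. On each side of the 5 loci the 3 nearest genes on the array were taken, 30 in all; 22 exceeded the floor, 14 of which were higher in Phc2 L307R and 8 lower. The median of their log2 ratios was 0.07, against 0.06 over all measured genes, of which 59.1% were above 0. None reached 2-fold with signals raised to the floor. Around Dlx5 and Dlx6 all 6 neighbours were measured, and they ranged from -0.28 for Tac1, a tachykinin precursor, and for the dynein chain gene Dync1i1 to 0.21 for Asns, asparagine synthetase. Sem1, a proteasome subunit next to Dlx6, was at 0.07 and Sdhaf3, an assembly factor of succinate dehydrogenase next to Dlx5, at -0.15. The 1 neighbour past 1.5-fold was Cytl1, a secreted protein of cartilage beside Msx1, with signals of 178.3 in Phc2 L307R and 74.9 in wild type, at least 1.88-fold higher. Of all measured genes, 4.19% were at least 1.5-fold higher and 3.25% at least 1.5-fold lower.

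**Figure D4:**
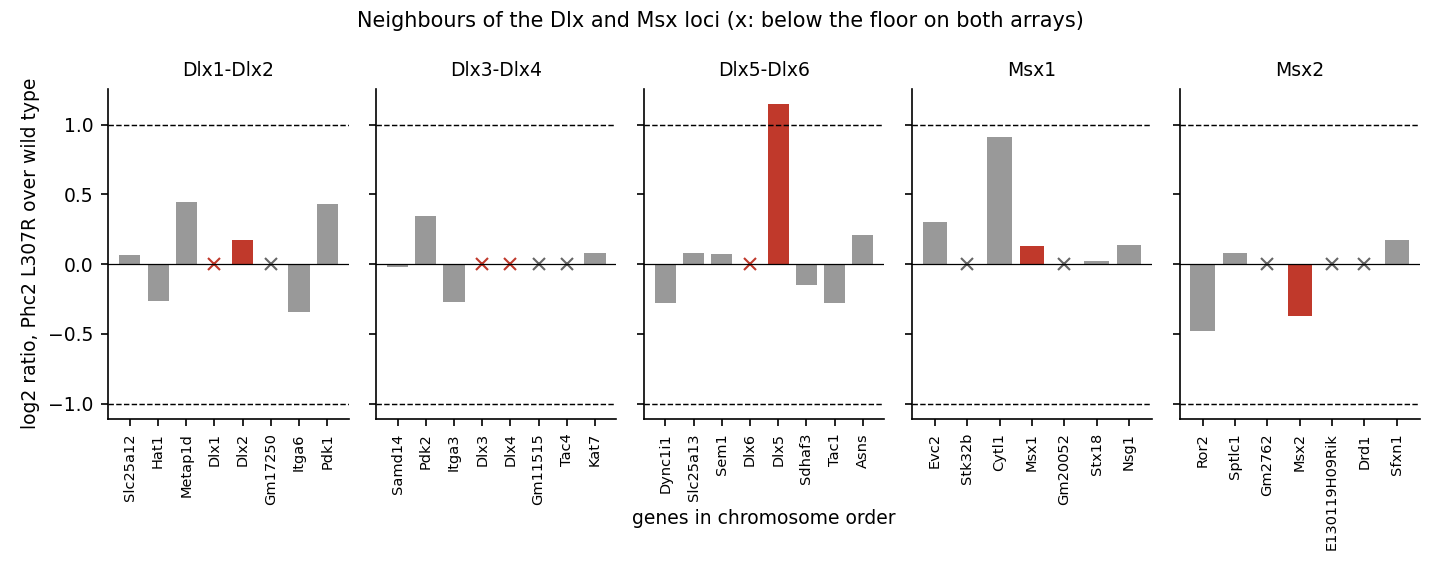
Log2 ratio of Phc2 L307R over wild type for the members (red) and the 3 nearest genes with a probe set on each side (grey) at the 5 loci, in chromosome order, with crosses for genes below the floor on both arrays. Dlx5 at 1.15 stands above its 6 neighbours, which lie between -0.28 and 0.21.

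The BMP pathway, which induces Msx1, Msx2 and Dlx5, was not shifted as a list. The array covered 25 of its genes and 23 exceeded the floor, 11 with a ratio above 0 and 12 below. Of all measured genes, 59.1% were above 0. The list's median was -0.0024, against 0.06 over all measured genes, and turned to 0.01 with the mean over measured probe sets. By the probe set that stands for a gene, and with signals raised to the floor, the ligand Bmp2 was the 1 gene past 2-fold: its signal was 105.6 in Phc2 L307R and 232.0 in wild type, 2.20-fold lower. Among all measured genes, 0.535% were at least 2-fold lower. Bmp4, the ligand best known for inducing Msx genes, was at 0.43, with 4418 in Phc2 L307R and 3285 in wild type. A further probe set of the inhibitory Smad7 read 211.0 in Phc2 L307R and 762.2 in wild type, a log2 ratio of -1.85, while the brighter one that stands for Smad7 gave -0.0024. The ligand Bmp7 read 114.3 in Phc2 L307R and 18.9 in wild type, so that its fold of at least 1.21 is a bound only. Where both signals exceeded the floor, the largest after Bmp2 in size were the antagonist Chrd (chordin) at 0.57 and the receptor Bmpr1b at 0.56, the second probe set of which gave at least 0.16. The direct targets Id1, Id2, Id3 and Id4 had log2 ratios of 0.07, -0.36, 0.22 and 0.39. A second measured probe set of Id2 gave 0.09. By the probe set that stands for each gene, the ligand and receptor genes went in both directions. Among these targets only Id2 was below 0, and its probe sets differed in sign. The list holds ligands together with their antagonists, so its median does not measure the activity of the pathway. A part of BMP signals in the Dlx5 or Msx2 ratio was not tested.

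Bone genes that Dlx5, Dlx3 or Msx2 act on or with were mostly higher. The array covered 12 of them and 8 exceeded the floor, 7 of these with a ratio above 0, and the median log2 ratio was 0.42. Ibsp, bone sialoprotein, whose promoter Dlx5 activates in rodent cells, had 997.6 in Phc2 L307R and 228.8 in wild type at its brighter probe set, and 1 of the 8 genes, Ibsp, was at least 2-fold higher, beside 0.579% of all measured genes, of which 59.1% were above 0. Alpl, alkaline phosphatase, was at 0.72, the osteoblast factor Sp7 at 0.50 or more, and Col1a2, a chain of the main bone collagen, at 0.45. Sp7 passed the floor in Phc2 L307R alone, so its ratio could only be above 0. Col1a1 and Col1a2 are also among the fibroblast markers below, whose median log2 ratio was 0.42 as well. Atf4 counted as higher at 0.19, while its other measured probe set gave -0.71. The other measured probe sets of Ibsp, Col1a1 and Col1a2 were above 0. Dmp1, Phex, Sost and Mepe, genes of late osteoblasts and osteocytes, were below the floor on both arrays. Some genes of the list, Runx2 and Spp1 among them, were not analysed here.

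Cartilage genes had a higher median than bone genes. All 12 were measured and 11 were above 0, with a median of 0.75, and 4 were at least 2-fold higher, again beside 59.1% above 0 and 0.579% at least 2-fold higher among all measured genes. Matn1 (matrilin, at least 1.62), Col11a2 (a minor cartilage collagen, 1.31), Hapln1 (the link protein of aggrecan, 1.04) and Comp (a cartilage matrix protein, 1.02) were those 4, while Sox9, the factor that sets up the cartilage lineage, was at -0.29. Matn1 and the ligand Ihh passed the floor in Phc2 L307R alone, so their ratios could only be above 0. Matn1, like Alpl among the bone genes, lies on chromosome 4 with Phc2. Earlier results of these data had already shown skeletal genes higher on this array, so their direction is no independent support for Dlx5.

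Summed signals of the osteoblast and chondrocyte marker lists were higher on the array on which Dlx5 was higher. So were those of the fibroblast, neuronal, skeletal muscle and macrophage lists, while those of the keratinocyte, neural crest and endothelial lists were lower. Osteoblast markers were measured for 4 of 5, with a summed signal of 1490 in Phc2 L307R and 682.2 in wild type, and Dmp1 was below the floor. Without Ibsp the sum was 492.3 in Phc2 L307R and 453.4 in wild type, and Omd (osteomodulin) was at -0.33. Chondrocyte markers were measured for 13 of 14, with 14581.5 in Phc2 L307R and 10198.5 in wild type, and Col9a2 was below the floor. Fibroblast markers were all measured, 11 of 11, with 164491 in Phc2 L307R and 125717 in wild type, as the label of the cultures has it. Of these 11 genes 8 were above 0, beside 59.1% of all measured genes, and the median log2 ratio of the list was 0.42. The count depends on the probe set that stands for a gene. Vim and Fn1 counted as higher at 0.42 each, while other measured probe sets gave -0.22 and -0.02 for Vim and -0.33 for Fn1. Pdgfra and Pdgfrb counted as lower at -0.12 and -0.34, while other measured probe sets gave 0.77 and 0.17 for Pdgfra and 0.33 for Pdgfrb. The part of a different share of skeletal cells in the Dlx5 ratio was not tested. Of the other cells known for Dlx or Msx genes, epidermal keratinocytes had 5 of 10 markers measured, with 1946 in Phc2 L307R and 2151 in wild type, and Krt14, Krt15, Epcam, Cdh1 and Trp63 below the floor on both arrays. Neuronal and neural progenitor markers had 5 of 10 measured, with 4566.5 in Phc2 L307R and 2844 in wild type. Stmn2, a regulator of microtubules, was at 1.01, and Elavl3, Snap25, Sox1, Pax6 and Gad1 were below the floor. Brightest of the list were Nes, with 1961.5 in Phc2 L307R and 1298 in wild type, and Stmn2, with 1721 and 852.9. A second probe set of Stmn2 gave 1.14, while other measured probe sets of Nes gave 0.13 and -0.29. Dcx passed the floor in Phc2 L307R alone, so its ratio could only be above 0. Markers of neural crest and Schwann cells had 5 of 6 measured, with 2948 in Phc2 L307R and 3277 in wild type; 4 of the 5 were above 0, with a median log2 ratio of 0.26, and the brightest, Ets1, was at -0.37. The summed signals were 18767 in Phc2 L307R and 17297 in wild type for 8 skeletal muscle markers. They were 589.9 in Phc2 L307R and 644.3 in wild type for 6 endothelial markers, of which Emcn (endomucin) was at -1.15. For 8 macrophage markers they were 1060.5 in Phc2 L307R and 720.8 in wild type, and Ptprc, C1qa and C1qb were below the floor. Laptm5 was at 1.00 by its brightest probe set. Another probe set of Laptm5 read 45.1 in Phc2 L307R and 98.7 in wild type, and its remaining ones were below the floor on both arrays.

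By the probe set that stands for each gene, genes that work with Dlx5 and Dlx6 in the jaw arches were mostly slightly higher. The array covered 20 of them, 18 were measured, 15 above 0 and 3 below (59.1% of all measured genes were above 0), with a median of 0.20, and none reached 2-fold with signals raised to the floor. Gsc (goosecoid), which lies downstream of Dlx5 and Dlx6 in the mouse lower jaw, had 155.6 in Phc2 L307R and 62.7 in wild type, at least 1.64-fold higher. Tfap2a, a neural crest factor, was at 0.55 or more, Pitx1, a factor of jaw and hindlimb, at 0.50, and the nuclear receptor Nr2f1 at -0.42. Hand2, which the same pathway switches on in the arch, was at 0.23, with 573.6 in Phc2 L307R and 489.8 in wild type, and the upstream signal Edn1 (endothelin) at -0.16. Second measured probe sets of Pitx1, Tfap2a and Hand2 gave 0.19, at least 0.33 and 0.32. Nr2f2 counted as higher at 0.39, while its other measured probe sets gave -0.13, -0.35, -0.43 and -0.28 or lower. Foxc1 counted as higher at 0.02, while its second probe set gave -0.15. Of the 18 ratios, those of Gsc, Tfap2a, Hand1, Barx1, Tfap2b and Alx1 are lower bounds, because their wild-type signals were below the floor. These genes were measured through the Phc2 L307R array alone, so they could only count as above 0.

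Limb genes had a median of 0.05 over 12 measured of 16, 8 above 0 and 4 below, beside the same 59.1%. This median turned to -0.01 in ratios centred on the median of all genes. The count depends on the probe set that stands for a gene. Wnt5a counted as higher at 0.06, while its other measured probe sets gave -0.50, -0.41 and -0.27. Rspo2 counted as higher at 0.13, while its second probe set gave -0.56 or lower. The Notch ligand Jag2 was at 0.77, the forelimb factor Tbx5 at 0.61, the ligand Wnt7a at -0.56 or lower and the ligand Shh (sonic hedgehog) at 0.42. A second probe set of Tbx5 gave at least 0.93. Fgf8, Trp63, Sp6 and Sp8, which are active in the limb ridge as Dlx5 and Dlx6 are, were the 4 genes below the floor on both arrays. Of 12 genes of forebrain interneurons only 2, Npy at 0.33 and Nrp2 at 0.25, were measured, and Gad1, Gad2 and Lhx6 were among the 10 below the floor. At the floor of 94.8, most genes of the forebrain list were therefore without signal, while most of the limb list had signal. Of the limb genes, Fgf4, Fgf10 and Wnt7a passed this floor on 1 array alone. With the floor at the 60th percentile, 6 of the 16 limb genes and 2 of the 12 forebrain genes were measured.

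Other NK-like homeobox genes, the relatives nearest to Dlx and Msx, were mostly below the floor. The array covered 30 of them, 9 exceeded the floor, and these had a median of 0.0078, which turned to -0.05 when centred. Vax2, a factor of the ventral eye, had 256.4 in Phc2 L307R and 17.1 in wild type, at least 2.70-fold higher, while the cortical factor Emx1 had 102.1 in Phc2 L307R and 205.0 in wild type, 2.01-fold lower. Tlx2, a factor of enteric neurons, was at 0.73 and Hlx, of the embryonic gut wall, at 0.35. Msx3, the neural relative of Msx1 and Msx2, read 9.5 in Phc2 L307R and 12.4 in wild type, below the floor. In this wider family 1 of 9 measured genes was at least 2-fold higher and 1 at least 2-fold lower, beside 0.579% and 0.535% of all measured genes.

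Genes for proteins that bind Dlx or Msx proteins differed little. Of 8 genes 7 were measured, 4 above 0 and 3 below (59.1% of all measured genes were above 0), and none past 2-fold. Their median was 0.05, which turned to -0.01 when centred and to -0.0074 with the floor at the 40th percentile. Maged1, also called Dlxin-1, which binds Dlx5 and Msx2, was at 0.45, with 7345 in Phc2 L307R and 5383 in wild type. Spen, which binds Msx2 in osteoblasts, was at 0.30, the SUMO ligase Pias1 at 0.26 and the Groucho co-repressor Tle1 at -0.20, though a second probe set of Tle1 gave 0.19. Other measured probe sets of Pias1 gave -0.13, 0.18 and -0.19.

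**Figure D5:**
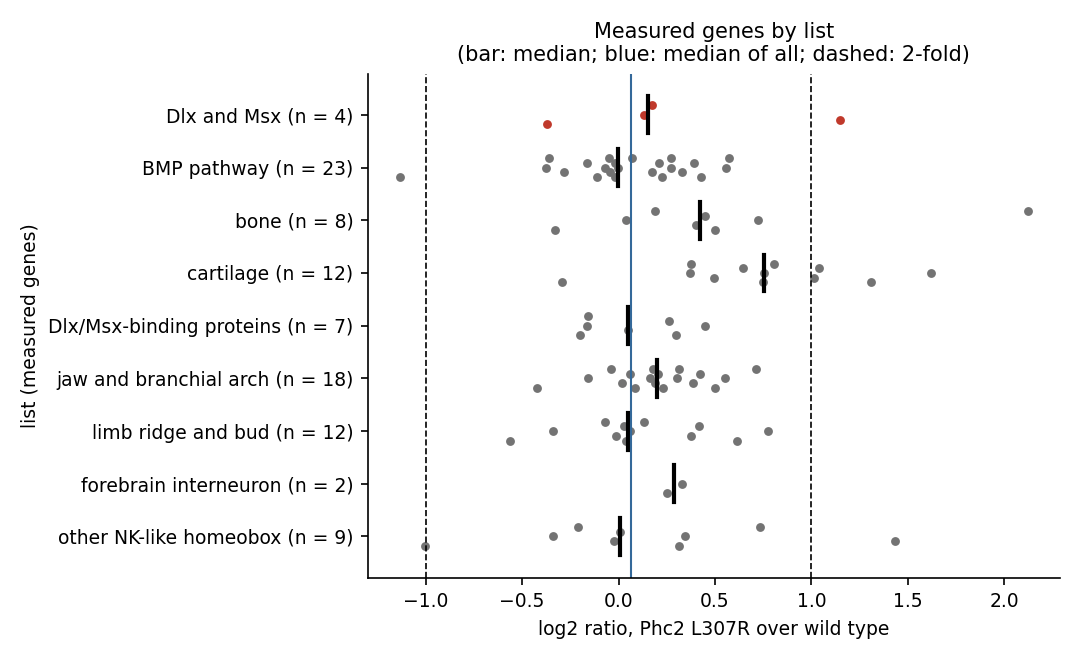
Log2 ratio of Phc2 L307R over wild type for the measured genes of each list (points), with the list's median as a black bar, the median of all measured genes (0.06) in blue and 2-fold as dashed lines. Cartilage and bone genes have medians of 0.75 and 0.42, the Dlx and Msx genes 0.15, and the BMP pathway -0.0024.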

How the data were processed

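Total RNA of mouse embryonic fibroblasts was hybridised as biotin-labelled cRNA, 1 array per genotype, per the labels' protocols. The authors deposited intensity values, a linear signal for 45101 probe sets on each array. Affymetrix Expression Console and MAS5 are named without versions, per the submitters' processing notes; no source used here states the scaling step, and the trimmed mean (2% at each end) was 500.0 on both arrays. The 64 control probe sets were left out. Symbols of 34945 probe sets with 1 gene were updated through a RefSeq table of GRCm38.p6, in which 34741 matched; this table also gave the order of genes. Probe sets with several symbols (932) or none (9160) were not used for genes.

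Signals below the floor of 94.8 were raised to it, and such ratios are bounds, written "at least", "or more" or "or lower". Log2 ratios are Phc2 L307R minus wild type. Of several probe sets the one with the highest mean log2 signal stood for the gene. No detection calls were used, no test was possible with 1 array per genotype, and the number of arrays limits the precision. The arrays had medians of 94.3 in Phc2 L307R and 94.8 in wild type and a Spearman correlation of 0.955 over 45037 probe sets. The members and lists were chosen with earlier results of these data known. Every member was named, and from each list up to 4 measured genes of largest absolute log2 ratio and any past 2-fold. Id1 to Id4, the neighbours of Dlx5 and Dlx6, Smad7, Bmp7 and Ets1 were added after their values were seen. So were Omd, Sox9, Hand2, Edn1, Msx3 and genes below the floor. The same holds for Hand1, Barx1, Tfap2b, Alx1, Nr2f2, Foxc1, Ihh, Col1a1, Atf4, Wnt5a, Rspo2, Fgf4 and Fgf10. Vim, Fn1, Pdgfra, Pdgfrb, Nes and Dcx were likewise added after their values were seen. No gene is named for a pattern like a member's, since 2 arrays give a gene 1 ratio only. The alternatives were quantile normalization, loess (span 0.4, 3 iterations), centring, no floor, the floor as a pseudocount, a floor at the 40th or the 60th percentile, the mean over measured probe sets, removal of _x_at and _s_at probe sets, and thresholds of 1.5-fold and 3-fold. Calculations ran in Python 3.11.15 with NumPy 2.4.6, pandas 2.3.3 and statsmodels 0.14.6, and were tested on simulated arrays with planted differences.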

Additional observations from a re-analysis of the deposited data

How the results depend on the processing

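Dlx5 had a log2 ratio of 1.15 and was higher in Phc2 L307R under all 9 alternatives run on it, from 0.72 to 1.15. The count of members at least 2-fold higher was 1; it dropped to 0 under a floor at the 60th percentile (176.2, which lies above the wild-type signal of Dlx5 and gives 0.72), 0 with the floor as a pseudocount (0.77) and 0 at a threshold of 3-fold; raising signals or adding to them shrinks a ratio by construction. No member was 2-fold lower under any alternative. Dlx2 ranged from 0.10 to 0.18 over 8 alternatives and was not measured with the floor at the 60th percentile. Msx1 ranged from 0.07 to 0.35, the highest without _x_at and _s_at probe sets, where 1417127_at stands for it, and Msx2 from -0.43 to -0.31. The median of the measured members ranged from 0.09 to 0.26. Other NK-like homeobox genes had a median of 0.35 with the floor at the 60th percentile, over 5 genes, against 0.0078. The medians of bone genes (0.19 to 0.42), cartilage genes (0.58 to 0.75) and jaw genes (0.14 to 0.35) kept their sign under all 9 alternatives. No paired analysis was possible because each genotype had 1 array. Depth could not be weighed beyond the floor: of the 12 member probe sets, 7 lay below it on both arrays, and a difference there was not detectable.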
